A study of Mus musculus with 4 samples.

Results

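Car8, the IP3 receptor genes Itpr1, Itpr2 and Itpr3, and the carbonic anhydrase genes Car2 and Car4 were followed in clones of a mouse endothelial tumour line with and without a Prox1 plasmid. The members were every probe set that the platform annotation gives to 1 of these 6 symbols alone, where a probe set is a group of short oligonucleotides that reads 1 transcript. This gave 11 probe sets for 5 genes, out of 12394 genes named on the array: 2 for Car8, 1 for Car2, 2 for Car4, 5 for Itpr2 and 1 for Itpr3. Itpr1 was not analysed here. Car8 was chosen by its intensities in these clones, as a gene higher in the Prox1-labelled ones, so its values are a description with no test. The same holds for the other members, which were picked with the comparison known.

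The study concerns the invasion of kaposiform hemangioendothelioma and used Py-4-1, a hemangioendothelioma line of the mouse. A total of 2 clones carried the pcDNA plasmid alone (control clones 1 and 2) and 2 clones, described as stably expressing the lymphatic homeobox factor Prox1, carried pcDNA/Prox1 (Prox1-labelled clones 1 and 2). All 4 were transfected clones, no untransfected parent was analysed here, and the sources used here do not give the promoter that drives Prox1. Each clone gave 1 array, so the spread within a group holds clone, culture and array handling together. These cannot be told apart.

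Carbonic anhydrases are zinc enzymes that turn carbon dioxide and water into bicarbonate and protons. Car8 belongs to the family by sequence but has lost a histidine that holds the zinc, and it does not catalyse this reaction. It binds the type 1 IP3 receptor and lowers the affinity of that receptor for inositol trisphosphate (IP3), and it is best known from Purkinje cells of the cerebellum, where Car8 loss causes ataxia in mice. IP3 receptors are channels of the endoplasmic reticulum that release stored calcium when phospholipase C makes IP3. In endothelium this release follows signals such as VEGF, histamine and thrombin, and it activates the endothelial nitric oxide synthase.

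The arrays had median intensities between 163 and 179.7, in the arbitrary linear units of the deposited values. Pairs of values set against each other are control clones 1 and 2 against Prox1-labelled clones 1 and 2, in that order. The probe set of Prox1 (1421336_at) read 52.1 and 60.5 against 62.4 and 44.3, so it did not separate the groups, and Prox1-labelled is used here as the labels give it. Of 12 endothelial markers 10 passed the intensity filter, which asks for a value above the array median on at least 2 of the 4 arrays, and Cldn5 and Erg did not. The summed intensity of these 12 genes ran from 37189 to 46524.9 in the control clones and from 46214 to 49393 in the Prox1-labelled clones. Of the 10 tested endothelial markers 9 were positive, where 50.9% of all tested genes were. Their median log2 change was 0.27, against 0.0074 over all tested genes. With no overlap 4 of them were higher and 1 lower, where 23.2% of all tested genes were higher and 23.2% lower. The largest changes were those of Flt1 (42.1 and 182 against 390 and 370) and Tek (377 and 579 against 1005 and 857). Control clone 1 lay below its array median in Flt1. Icam2 was the lower one, at 5716 and 5136 against 4323 and 4726. Of 10 measured Purkinje and other neuronal markers 0 passed that filter, with sums of 529 to 567 in control clones and 580.4 to 582 in Prox1-labelled clones. Of these 10, 2 were higher and 1 lower with no overlap, where 20.9% and 20.2% of all probe sets without controls were. Pcp2, a defining Purkinje marker among them, read 23.8 and 56.8 against 91.2 and 74.9, below every array median. Pcp4, also below every array median, went the other way, at 85.2 and 82.3 against 42.8 and 24.3. Summed markers of epithelium (369 to 492), leukocytes (1260.3 to 1629), fibroblasts and mural cells (734 to 1106) overlapped between the groups. The sum for red cells and platelets together was lower in the Prox1-labelled clones (992 and 1031 against 878 and 663). Of these 6 measured genes 2 passed the filter, both of platelets. Pf4 read 421 and 316 against 180 and 197, and Itga2b 317 and 384 against 312 and 284. Gp9, also of platelets but below the filter, overlapped at 30.5 and 90.3 against 189 and 26.4. The red cell genes, all below the filter, had no common direction: Hba-a1 was lower and Alas2 higher with no overlap, and Klf1 overlapped. The part of these markers in the values of Car8 was not tested.

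Car8 was higher in both Prox1-labelled clones than in either control clone, by both of its probe sets. The brighter one, 1427482_a_at, read 528 in control clone 1 and 288 in control clone 2. It read 1866 in Prox1-labelled clone 1 and 1819.7 in Prox1-labelled clone 2. The groups lay far apart, the Prox1-labelled clones close together and the control clones less so. Group means were 408 ± 169 (SD, n = 2) and 1843 ± 33.0, and the log2 change was 2.11 ± 0.26 (standard error of the fit), a 4.31-fold difference on the scale of log2(intensity + 47) (47 was the 25th percentile of the deposited table). In RNA from whole cultures, more cells with the transcript and more transcript per cell cannot be told apart.

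The dimmer probe set of Car8, 1424958_at, read 80.6 and 60.0 against 228 and 268. The direction was that of the first probe set, with a log2 change of 1.33 ± 0.23. Its control values lay below the array medians, so it passed the filter only through the group in which it was high and had to differ. As a floor, 27 control probe sets for Bacillus transcripts were used, none of which reads a mouse gene, and the brightest of them stood at 45.3 and 100.7 on the control arrays and at 88.4 and 97.5 on the others. By 1424958_at Car8 exceeded this floor in control clone 1 but not in control clone 2. Since the offset of 47 presses down changes of dim signals, the log2 change was 1.83 with no offset and 0.79 with an offset of 173.

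**Figure D1:**
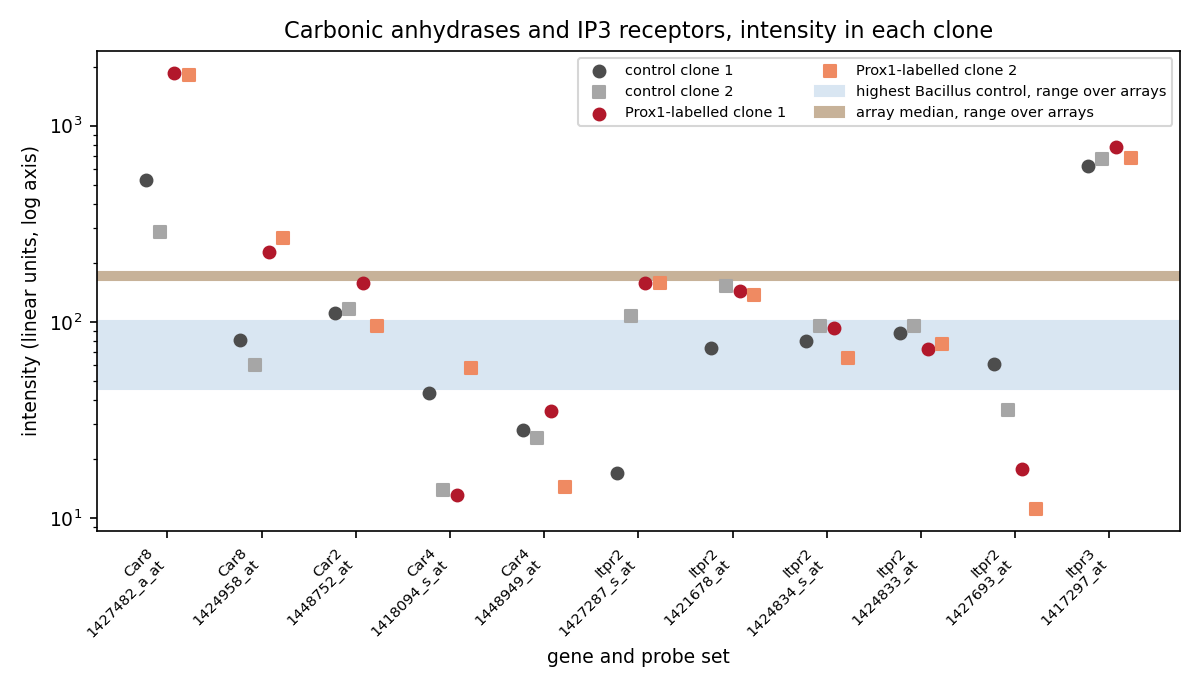
Intensity (log axis, arbitrary units) of the 11 probe sets in each of the 4 clones, 1 point a clone, with bands for the range of array medians and of the highest Bacillus control. Car8 by 1427482_a_at reads 528 and 288 in the control clones against 1866 and 1819.7, while Itpr3 lies between 623 and 781 in all clones and the probe sets of Car2, Car4 and Itpr2 lie under the array medians.

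Every Prox1-labelled clone exceeded every control clone in Car8. By 1427482_a_at, Prox1-labelled clone 1 read 3.54 times control clone 1 and 6.47 times control clone 2. For Prox1-labelled clone 2 these ratios were 3.45 and 6.31. The ratio thus rested mainly on which control clone was taken and hardly on the Prox1-labelled clone. By 1424958_at they were 2.83 and 3.33 against control clone 1, and none is given against control clone 2, which lay under the Bacillus floor. Without control clone 1 the log2 change of 1427482_a_at stood at 2.49 and without control clone 2 at 1.72, while it was 2.09 and 2.12 without Prox1-labelled clones 1 and 2. That of 1424958_at ran from 1.21 to 1.46 on leaving out each clone.

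The control clones themselves differed in Car8. By 1427482_a_at control clone 1 read 1.83 times control clone 2, and 6.72% of all tested probe sets differed at least as much between these clones on the log2 scale. The Prox1-labelled clones differed by a ratio of 1.03, which 88.1% of tested probe sets reached or passed. By 1424958_at no such ratio is given, since control clone 2 lay under the Bacillus floor.

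Across the whole array, 12 of 11656 tested probe sets were called (0.103%) by limma with Benjamini-Hochberg adjustment at a threshold of 0.05, of which 11 were higher (0.0944%) and 1 lower (0.00858%). Among the members 3 probe sets were tested, those of Car8 and Itpr3, and 1 of them was called, 1427482_a_at of Car8. Nothing is read from this count, because the choice of Car8 used the same comparison. The call was lost under quantile normalization (limma adjusted p = 0.0821), with median centring (0.0568) and without the intensity filter (0.367). A 4-fold or larger difference with no overlap in the higher direction was seen for 9 tested probe sets (0.0772%), 1427482_a_at among them. At 2-fold or more there were 122 (1.05%), both probe sets of Car8 among them. Nothing is read from these shares either, because Car8 was chosen on this comparison and 1424958_at had to differ.

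Of the IP3 receptor genes analysed here, Itpr3 was the one with a clear signal and differed little. Itpr1, the gene of the receptor that Car8 binds, was not among them. Itpr3 encodes the type 3 receptor, a channel known for passing calcium from the endoplasmic reticulum to mitochondria. Its probe set 1417297_at read 623 and 679.3 against 781 and 681.1. The groups were separated by the narrow gap between 679.3 and 681.1, and 23.9% of all tested probe sets separated the groups in the same direction. The log2 change was 0.15 ± 0.19, smaller than its own standard error, and ran from 0.061 to 0.25 on leaving out each clone.

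Itpr2, the type 2 receptor, which has the highest affinity for IP3 of the family, was read by 5 probe sets that differed in direction. All 5 lay below the intensity filter. By 1427287_s_at the signal was 16.9 in control clone 1, 107 in control clone 2, and 157 in each Prox1-labelled clone. This probe set had the largest log2 change of the 5 (1.04 ± 0.43), and control clone 1 set most of it: without that clone the change was 0.40, and without control clone 2 it was 1.68. Control clone 1 lay under the Bacillus floor there. The change was 1.88 with no offset and 0.52 with an offset of 173.

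The other probe sets of Itpr2 pointed in several directions. Probe set 1421678_at read 73.5 and 152 against 144 and 136, so that the groups overlapped and control clone 1 was again the low one. Probe set 1424834_s_at read 79.7 and 94.7 against 93.3 and 65.3, also with overlap. By 1424833_at the values were 88.1 and 94.8 against 72.3 and 77.2, a small difference downwards with a log2 change of -0.18 ± 0.21. By 1427693_at they were 60.7 and 35.5 against 17.7 and 11.1, lower with no overlap, but control clone 1 alone exceeded the Bacillus floor. Its log2 change of -0.62 was -1.73 with no offset and -0.24 with an offset of 173. With 1 probe set higher, 2 lower and 2 overlapping, the direction of Itpr2 was not settled. Of the 5, 1421678_at alone exceeded the highest Bacillus control on all 4 arrays.

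**Figure D2:**
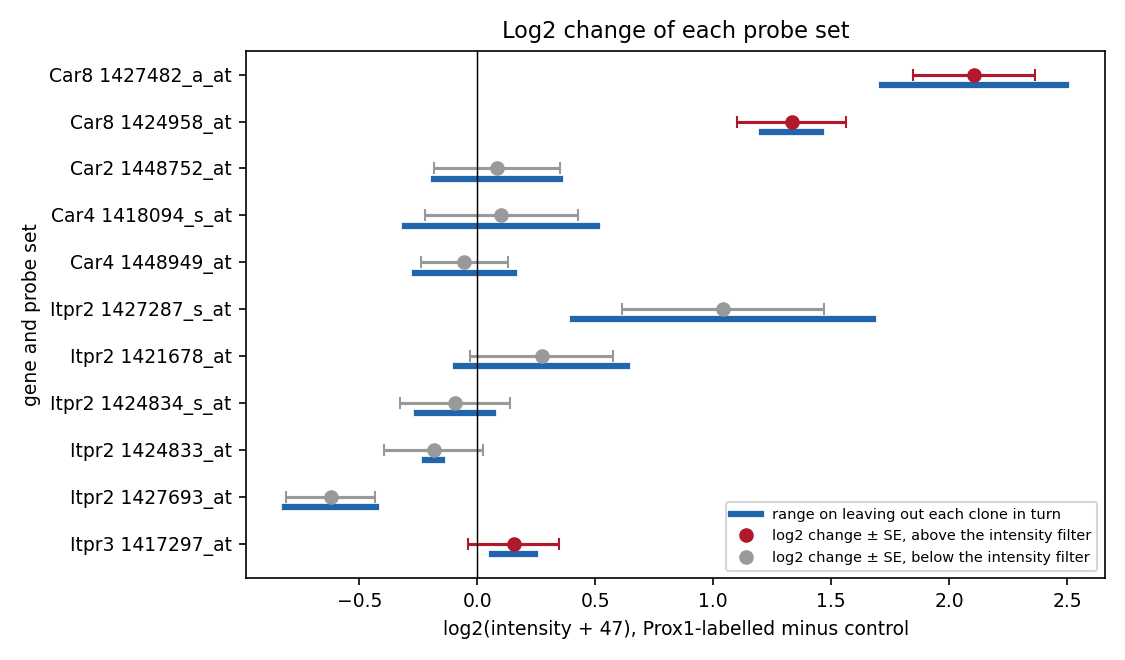
Log2 change (Prox1-labelled minus control, of intensity + 47) with the standard error of the fit for each of the 11 probe sets, and as a bar the range on leaving out each clone in turn. Both probe sets of Car8 stay above 1 throughout, Itpr3 lies at 0.15, and the 5 probe sets of Itpr2 range from -0.62 to 1.04.

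The catalytic carbonic anhydrases of the set were dim and showed no separation. Car2 encodes the abundant cytosolic enzyme of red cells, kidney and osteoclasts. Its probe set 1448752_at read 111 and 117 against 158 and 94.7, which overlapped on either side (log2 change 0.084 ± 0.27). Car4 encodes a membrane-anchored enzyme of the cell surface, known from the luminal side of lung capillaries. By 1418094_s_at Car4 read 43.3 and 13.9 against 13.1 and 58.5, and by 1448949_at it read 28.1 and 25.5 against 35.2 and 14.4. Both probe sets of Car4 lay under the highest Bacillus control on every array, so that no level of Car4 was measured.

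Taking the 11 probe sets as they are, 4 were higher with no overlap, 2 were lower with no overlap and 5 overlapped. Over all probe sets without controls, 20.9% were higher and 20.2% lower with no overlap, 41.1% in all. Of the 3 tested ones all were higher with no overlap, where 23.9% of tested probe sets were higher, 22.3% lower and 46.2% either. As 1424958_at had to differ and Car8 was chosen on this comparison, nothing is read from these counts. Their median log2 change was 0.10, against 0.0025 over all probe sets. With the offset of 47 the probe sets of Car8 had the largest changes of the set, which the choice of Car8 bears on. With no offset, 1427287_s_at of Itpr2 (1.88) exceeded 1424958_at of Car8 (1.83).

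Of the remaining carbonic anhydrases 13 were listed, all of them on the array, and 2 of them passed the filter. Car13, a cytosolic enzyme, read 172 and 262 against 264 and 295 (log2 change 0.32 ± 0.24, limma adjusted p = 0.579). Control clone 2 and Prox1-labelled clone 1 were almost equal there. Car9, the hypoxia-induced membrane enzyme, read 154 and 207 against 189.7 and 240.1 with overlap (0.21 ± 0.23, adjusted p = 0.748). The 11 others stayed under the filter with intensities between 9.18 and 161, among them Car10 and Car11, the other family members that lack catalysis. Car11 read 48.9 and 94.0 against 108.5 and 104, and Car10 overlapped between the groups.

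To place Car8 and the receptors in their pathway, 8 lists were examined, of other carbonic anhydrases and of genes that make IP3, remove it, bind the receptors, fill the calcium store, move calcium elsewhere, respond to it, or carry bicarbonate and protons. Of 217 listed genes 165 were on the array and 88 passed the filter. Of these 88, 0 were called in either direction by limma, where 0.115% of all 6956 tested genes were called. At an unadjusted p under 0.05 there were 6 higher and 9 lower, while over all tested genes 8.22% were higher and 6.14% lower. Their median log2 change was -0.041, against 0.0074 over all tested genes. Without control clone 2, which leaves 1 control array, 14 of the 88 were called, 5 higher and 9 lower, and 1150 probe sets were called over the whole array. Inpp5b, Trpm7 and Ppp3cb were among the higher ones, and Atp2a2, Calr, Hspa9, Nucb1, Vdac1 and Hvcn1 among the lower. Leaving out any of the other clones called 0 of the 88.

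Among the genes that serve IP3 production, 0 were called. Of 11 tested genes 4 were positive and 7 negative, with a median of -0.072. Gnaq, the G protein subunit that activates phospholipase C beta, read 193 and 227 against 293 and 241 (log2 change 0.29 ± 0.22, limma adjusted p = 0.592). Plcb3, a phospholipase C beta, read 139 and 364 against 296 and 254, so the control clones spanned the others. Plcg1, the phospholipase C that VEGF receptors activate, was below the filter, at 9.24 or less in each clone. Cds2 and Pip5k1a, which serve the resynthesis of the lipid that phospholipase C cleaves, had log2 changes of -0.37 ± 0.18 (adjusted p = 0.377) and -0.54 ± 0.33 (adjusted p = 0.496). Pip5k1a read 433 and 742 against 264 and 529 with overlap. Its change stood at -0.095 without Prox1-labelled clone 1 and at -0.98 without Prox1-labelled clone 2. The control clones lay far apart as well, so its size hung on clones of both groups.

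Among the genes that remove IP3 and its products, 9 of 12 tested were positive, where 50.9% of all tested genes were. The median was 0.043. Inpp5b, an inositol polyphosphate 5-phosphatase, read 209 and 312 against 617 and 506. The groups did not overlap, and the log2 change was 1.00 ± 0.23 (limma adjusted p = 0.154), the largest among the probe sets that stood for the list genes. Synj2, the phosphatase synaptojanin 2, read 117 and 119.6 against 205 and 249 by 1452344_at (0.72 ± 0.22, adjusted p = 0.209). Both control values lay below their array medians, so this probe set passed the filter only through the group in which it was high, and neither its p nor its place in the count of 6 higher genes is read as support. Of its 5 other probe sets, all below the filter, 4 overlapped between the groups. Itpkb and Inpp5a, named by role, differed by less than the standard errors of the fit. Itpkb, an IP3 kinase, read 496 and 525 against 539 and 512 (0.039 ± 0.19). Inpp5a, the main IP3 5-phosphatase, read 947 and 907 against 843 and 815 (-0.15 ± 0.18). Inpp5a was thus lower with no overlap, as were 23.2% of all tested genes.

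Of 13 tested genes for proteins that bind or regulate IP3 receptors, 0 were called. In log2 change 11 were negative and 2 positive, where 50.9% of all tested genes were positive. The median was -0.14, and in 5 of them the groups separated downwards, where 23.2% of all tested genes did. Hspa9, a mitochondrial chaperone that links IP3 receptors to the outer mitochondrial membrane, read 4863 and 3647 against 2481 and 2723 (log2 change -0.69 ± 0.20, limma adjusted p = 0.191). Its probe sets 1418503_at and 1431274_a_at gave -0.57 and -0.43, while 1453811_at, below the filter, gave 0.48. Grina read 2183 and 2629 against 1697 and 1745 (-0.47 ± 0.18, adjusted p = 0.295). Ahcyl1, the protein IRBIT that competes with IP3 for the receptor, differed by less than its standard error, at 1582 and 1719 against 1548 and 1635 (-0.051 ± 0.18, adjusted p = 0.931). The receptor regulator closest in role to Car8 on this list therefore did not separate the groups.

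Of 16 tested genes of the calcium store of the endoplasmic reticulum, 0 were called. In log2 change 13 were negative and 3 positive, where 50.9% of all tested genes were positive. The median was -0.10, and in 7 the groups separated downwards, against 23.2% of all tested genes. Atp2a2 encodes the SERCA2 pump that refills the store. Its brightest probe set, 1427250_at, read 10192 and 7208 against 6019.7 and 5416 (log2 change -0.58 ± 0.20, limma adjusted p = 0.248). The other 3 probe sets of Atp2a2 had changes of -0.58, -0.66 and -0.20, so the 4 were negative in all. Control clone 1 set much of the size by 1427250_at, with -0.33 without it and -0.83 without control clone 2.

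The calcium-binding protein of the store, calreticulin, was lower by each of the 3 probe sets of its gene Calr, with log2 changes of -0.62, -0.79 and -0.53 and limma adjusted p of 0.17, 0.128 and 0.22. Nucb1, a calcium-binding protein of the Golgi, read 2025 and 1561 against 1201 and 846 (-0.79 ± 0.23, adjusted p = 0.196). Stim1, the sensor that reports an empty store, differed by less than its standard error, at 197 and 221 against 227 and 174 (-0.056 ± 0.22, adjusted p = 0.939). The list also holds chaperones of protein folding, Hspa5, Hsp90b1 and Canx, with log2 changes of -0.69, -0.65 and -0.042. Their limma adjusted p were 0.209, 0.285 and 0.948. The control clones lay far apart in Hspa5 (25994 and 16709 against 12885 and 12941) and Hsp90b1 (9061 and 5341 against 4815 and 4033). Further probe sets gave -1.14 for Hspa5, -0.68 for Hsp90b1, and -0.29 and -0.024 for Canx.

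**Figure D3:**
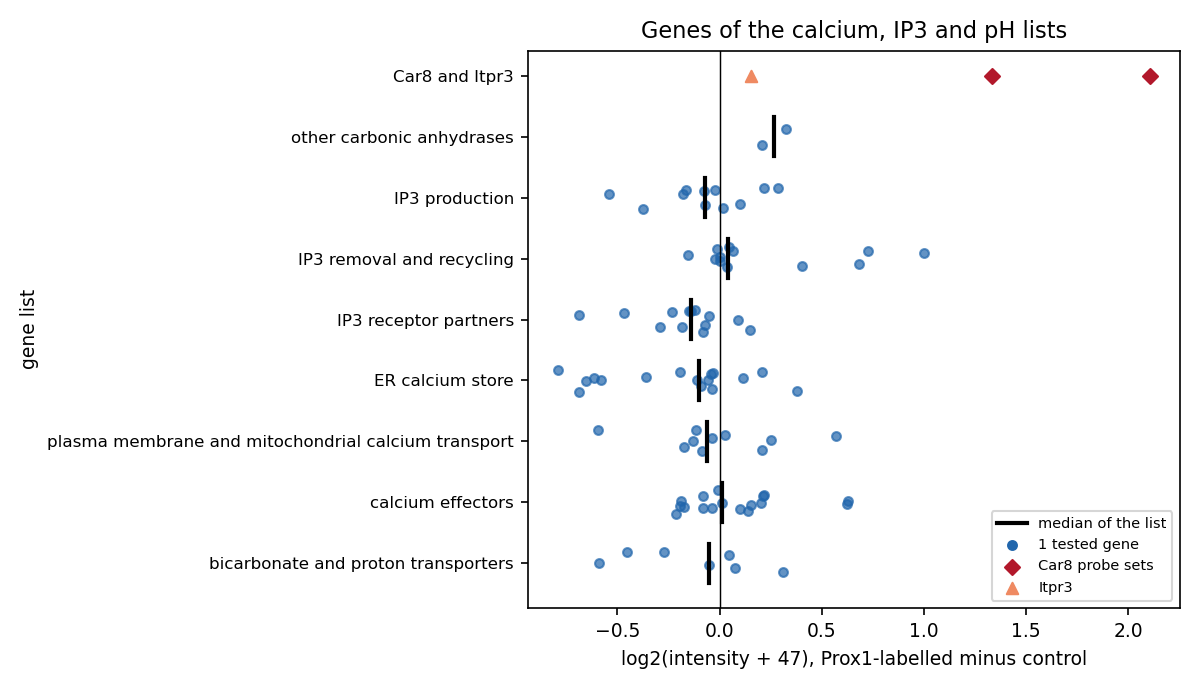
Log2 change (Prox1-labelled minus control, of intensity + 47) of each tested gene of the 8 lists, 1 point a gene, with the median of each list as a bar and the probe sets of Car8 and Itpr3 on top. The medians lie between -0.14 and 0.26, Inpp5b has the largest list change at 1.00, and both probe sets of Car8 lie beyond it.

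Calcium transport outside the store gave 4 positive and 6 negative genes of 10 tested, with a median of -0.062. Vdac1, a channel of the outer mitochondrial membrane, read 7599 and 5769 against 4343 and 4395 (-0.59 ± 0.19, limma adjusted p = 0.22), and its other tested probe sets gave -0.78, -0.45 and -0.29. Trpm7, a cation channel with a kinase domain, read 280.3 and 373 against 457 and 552 (0.57 ± 0.22, adjusted p = 0.287), and a further probe set, 1416800_at, gave 0.94 (adjusted p = 0.154). Orai1, the plasma membrane channel that opens when the store is empty, read 1035 and 1617 against 1144 and 1215, within the range of the control clones (-0.13 ± 0.23, adjusted p = 0.847).

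Among calcium effectors 9 of 17 tested genes were positive, with a median of 0.010. The 3 genes for catalytic subunits of calcineurin, the calcium-dependent phosphatase that acts on NFAT factors, had no settled common direction. Ppp3ca read 911 and 792 against 1467 and 1215 (log2 change 0.62 ± 0.20, limma adjusted p = 0.22), and its other 2 probe sets gave 0.37 and 0.24. Ppp3cb read 560 and 774 against 1097 and 993 (0.63 ± 0.21, adjusted p = 0.242), while its probe set 1427468_at gave -0.27, so its direction was not settled. Ppp3cc, below the filter, read 115 and 163 against 72.4 and 87.7, lower with no overlap. Both Prox1-labelled values lay under the Bacillus floor of their arrays. Its other probe set, 1420743_a_at, overlapped at 37.5 and 44.8 against 37.9 and 36.2, so the direction of Ppp3cc was not settled either. Rcan1, a target gene of calcineurin and NFAT signalling, read 975 and 852 against 1147 and 734 and did not separate the groups (0.010 ± 0.24). Nos3, the endothelial nitric oxide synthase that calcium activates, read 3455 and 4711 against 3859 and 3771 (-0.080 ± 0.20).

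Bicarbonate and proton transporters, the partners of catalytic carbonic anhydrases at membranes, held 7 tested genes, 3 positive and 4 negative, with a median of -0.053. Hvcn1, a voltage-gated proton channel, read 480 and 373 against 249.7 and 282 (-0.59 ± 0.21, limma adjusted p = 0.264). Slc9a3r1, a scaffold protein of the sodium-proton exchanger, read 489.7 and 621 against 303 and 498 with overlap (-0.45 ± 0.25, adjusted p = 0.449).

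The chromosomal neighbours of Car8 were read as well, a choice made after its values were seen. In RefSeq order (assembly GRCm38.p6), the 3 nearest protein-coding genes on one side were Tox, Nsmaf and Sdcbp, and on the other Rab2a, Chd7 and Clvs1. Of their 14 probe sets 6 passed the filter, 4 of Rab2a and 2 of Sdcbp, and in all 6 both Prox1-labelled clones exceeded both control clones, where 23.9% of tested probe sets did so. Rab2a, the gene next to Car8, encodes a small GTPase of transport between endoplasmic reticulum and Golgi. By 1419945_s_at Rab2a read 1188 and 1039 against 1768 and 1699 (log2 change 0.62 ± 0.18, limma adjusted p = 0.203). The other 3 tested probe sets of Rab2a gave 0.48, 0.44 and 0.52.

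Sdcbp, which encodes the scaffold protein syntenin, read 7039 and 6763 against 9824 and 9669 by 1423332_at (0.50 ± 0.16, limma adjusted p = 0.22) and gave 0.55 by 1450941_at. Of the 6 probe sets 0 passed the threshold, with limma adjusted p from 0.203 to 0.342. All 6 had an unadjusted limma p under 0.05. Of all tested genes, each read by 1 probe set, 8.22% did in the higher direction and 14.4% in either. The 6 probe sets read only 2 genes, so they are not 6 separate observations, and a share of genes is not a like measure. Tox, on the near side between Sdcbp and Car8, was below the filter and overlapped between the groups by both of its probe sets, as did Chd7 and Clvs1 by 1 each. Nsmaf, also below the filter, read 50.6 and 37.0 against 62.4 and 107.

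**Figure D4:**
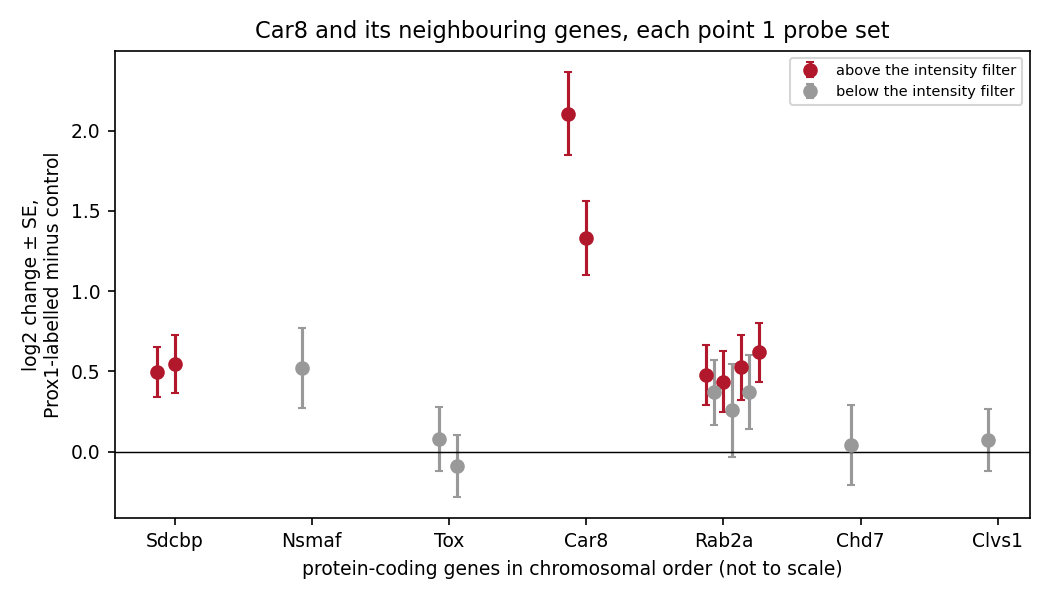
Log2 change (Prox1-labelled minus control, of intensity + 47) with the standard error of the fit for the probe sets of Car8 and of the 3 protein-coding genes on either side, in chromosomal order and not to scale. Car8 stands at 2.11 and 1.33, the tested probe sets of Rab2a and Sdcbp between 0.44 and 0.62, and those of Tox, Chd7 and Clvs1 near 0.

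Genes with a profile most like that of Car8 over the 4 arrays were ranked by the root mean square difference from 1427482_a_at after each profile was centred on its mean. The nearest 5 were Eef1a2 (0.31 on the log2 scale), Ssr4 (0.35), Tgfb3 (0.35), Idh1 (0.36) and Ctnnal1 (0.36). This likeness rests on 4 arrays and, since these genes too are high in the Prox1-labelled clones, on the same comparison. Eef1a2, a tissue-restricted translation elongation factor, read 149 and 126 against 525 and 552. Ssr4, a subunit of the translocon-associated complex, had this profile by 1435709_at alone (76.5 and 53.9 against 277 and 263). Its brightest probe set, 1448524_s_at, had a log2 change of 0.11 with overlap, and 1427096_s_at one of 0.057, so the match does not hold for the gene as a whole.

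Tgfb3, which encodes a transforming growth factor beta, read 13.0 and 20.3 against 189 and 207, and its control values lay below the Bacillus floor. Idh1, the cytosolic isocitrate dehydrogenase, read 197 and 215 against 813 and 799.8 by 1422433_s_at, while 1419821_s_at, below the filter, gave a log2 change of 0.40. Ctnnal1, a protein related to alpha-catenin, read 178 and 148 against 509 and 625, and its probe set 1420929_at gave 0.88. Eef1a2, Tgfb3 and Ssr4 by 1435709_at had control values below the array medians and passed the filter only through the Prox1-labelled clones.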

How the data were processed

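RNA of 4 Py-4-1 clones was hybridised to 1-colour Affymetrix arrays. The authors deposited probe set intensities on a linear scale, and the submitters' processing notes name MAS5, with no version in the sources used here. Each column had a mean of 500.0 after trimming 2% at either end. Detection calls were not used here. The table held 22690 probe sets, of which 64 controls were left out, and 20380 of the others had 1 gene in the platform annotation (691 several, 1555 none).

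Values were analysed as log2(intensity + 47), the offset being their 25th percentile. Probe sets above the array median on at least 2 of 4 arrays were tested (11656, for 6956 genes) with limma 3.58.1 in R 4.3.3 (lmFit, eBayes with an intensity trend, 2-sided, Benjamini-Hochberg over all tested probe sets, threshold 0.05). Members below this filter were read from the same fit without it. A list gene was represented by its tested probe set with the highest mean. Standard errors are those of the fit and SDs are of 2 clones. Separate cultures are not stated, so the spread behind the p-values holds clone, culture and array handling together. The fit also draws the variance of each probe set towards a trend over all tested probe sets. Its standard errors and p-values therefore do not measure the spread of that probe set alone. Precision is limited by having 4 arrays: with 2 clones a group, an exact permutation test cannot reach a p below 0.333.

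Members and lists were chosen with earlier results of these data known. Named were all members, genes given by role, up to 4 called genes of each list (where 0 were called, the 2 of lowest unadjusted p), and the 5 profiles nearest to Car8. The procedure was tested on simulated data.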

Additional observations from a re-analysis of the deposited data

How the results depend on the processing

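The log2 change of Car8 was positive under all 14 alternatives by both probe sets, and that of 1427482_a_at stayed between 1.72 and 2.49. By 1424958_at it was 1.83 without an offset and 0.79 with an offset of 173, and from 1.21 to 1.46 on leaving out a clone. The offset also moved the dim probe sets of Itpr2, 1427287_s_at from 1.88 without it to 0.52 with 173 and 1427693_at from -1.73 to -0.24. The count of probe sets called over the whole array by limma, 12 as reported, was 4 under quantile normalization, 7 with the robust variance model and 0 without the filter, where 2300 had an unadjusted p under 0.05. Leaving out a clone gave 42 to 1150, and the 12 remained each time. The lone array of a group is then assumed to vary like the others. Of the list genes, 0 were called under every alternative but the one without control clone 2, in a range of 0 to 14 on leaving out a clone, and 15 of 88 had an unadjusted p under 0.05 in the reported fit. The clone number as a replicate block gave 110 called probe sets and 0 list genes. The correlation of the clone differences of the 2 groups over tested probe sets was -0.009. Whether clones of the same number shared culture or array handling was not tested. Quantile normalization moved the median of all changes by -0.02. Low signal over background limits what can be said of Itpr2, Car2 and Car4.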
